A study of Mus musculus with 12 samples.

Results

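Zic1 and Pax3 are 2 transcription factor genes of the dorsal neural tube, and their signal was followed here over dorsal and ventral spinal cord cells of the postnatal mouse. They were chosen by name, as the entries Zic1 and Pax3 in the gene tables deposited by the authors, and each had 1 probe set, so 2 of 28467 probe sets tested and 2 of 4575 named genes are described. RNA came from spinal cords taken at postnatal day 7 from mice that carry the Aldh1l1-GFP transgene and have a swiss-webster background, in which green fluorescent protein is made under control of the Aldh1l1 gene, a gene of astrocytes. Cords were divided into a dorsal and a ventral part, dissociated with papain and flow sorted. The 4 groups were dorsal astrocytes and ventral astrocytes, both GFP-positive, and dorsal non-astrocytes and ventral non-astrocytes, both GFP-negative, with 3 biological replicates in each and 1 array per replicate. All 4 groups carry the transgene and passed through the same dissociation and sort, and the GFP-negative sort is a mixture of every other cell of the cord. The labels do not say how many animals were pooled for an array or whether a replicate number marks a shared litter.

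The neural tube is patterned along its dorsoventral axis by bone morphogenetic proteins and Wnt proteins from the roof plate and the overlying ectoderm and by Sonic hedgehog from the floor plate and notochord. Zic1 encodes a zinc finger protein of a family whose fingers resemble those of the Gli factors, and it is active in the roof plate and dorsal progenitors. Pax3 encodes a protein with a paired domain and a homeodomain that marks dorsal progenitors and neural crest, and its loss in the splotch mouse gives neural tube and neural crest defects. Both genes are known mostly for the embryo, where the progenitors that carry them go on to form dorsal neurons and glia.

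Of the 2 genes, 1 matched an entry in the RefSeq promoter table of build GRCm38.p6. The 250 bases before the annotated start of Zic1 lie at chr9:91365769-91366018 on the minus strand and are shown because this gene had the larger regional difference in astrocytes. They are written 5′ to 3′, with capitals for the CCAAT box and the GC box GGGCGG on either strand.
Zic1: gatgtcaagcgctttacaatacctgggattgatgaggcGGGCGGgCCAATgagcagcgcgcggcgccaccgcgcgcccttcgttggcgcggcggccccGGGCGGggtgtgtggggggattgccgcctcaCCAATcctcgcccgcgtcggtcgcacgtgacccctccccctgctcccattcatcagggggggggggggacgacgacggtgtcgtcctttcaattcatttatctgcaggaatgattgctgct
The stretch holds 66.0% G and C, against a median of 52.4% over the 32851 promoter stretches of that length in the table. It has 2 matches to CCAAT, which is found on either strand in 33.8% of these stretches, and 2 to GGGCGG, found in 32.7%. The ZIC core CAGCAGG (8.44% of stretches), the paired domain core GTCACGC (1.78%) and the homeodomain core ATTA (54.9%) had 0 matches in it on either strand. A match of letters is a description and not a site of binding.

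The sort was checked on 4 astrocyte genes before the members were read, because the source label of the GFP-negative samples repeats the wording of the GFP-positive ones, while their titles and cell type labels say GFP-negative. Aldh1l1 lay between 9.10 and 10.04 in astrocytes and between 5.71 and 6.05 in non-astrocytes, as log2 signal over 6 arrays each. Aqp4, a water channel gene, lay between 11.53 and 11.81 in astrocytes and between 6.17 and 7.26 in non-astrocytes. Gfap and Slc1a3 also had every astrocyte array above every non-astrocyte array, so titles and signals point the same way on all 12 arrays. The median log2 signal of an array was 6.57 to 6.62. The deposited values carry no detection call, so it is not known whether a member's signal near that level is above background.

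Dorsal astrocytes had the highest signal for Zic1 of the 4 groups. Its log2 signal was 8.81, 8.46 and 8.62 on the 3 dorsal astrocyte arrays, 7.303, 6.92 and 6.94 on the ventral astrocyte arrays, 6.61, 7.10 and 6.86 on the dorsal non-astrocyte arrays, and 6.44, 6.35 and 6.798 on the ventral non-astrocyte arrays. All 3 dorsal astrocyte arrays stood above the other 9, with a gap of 1.16 to the nearest ventral astrocyte array. The means were 8.63 ± 0.18, 7.05 ± 0.22, 6.85 ± 0.24 and 6.53 ± 0.24 in that order (SD, n = 3 each). Of neighbours in this order, ventral astrocytes and dorsal non-astrocytes overlapped, and so did dorsal and ventral non-astrocytes.

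Pax3 had the same order of groups. Its log2 signal was 8.35, 8.31 and 8.09 on the dorsal astrocyte arrays, 7.32, 6.91 and 6.55 on the ventral astrocyte arrays, 6.64, 6.62 and 6.75 on the dorsal non-astrocyte arrays, and 6.55, 6.33 and 6.02 on the ventral non-astrocyte arrays. Here too the 3 dorsal astrocyte arrays stood above the other 9, and ventral astrocytes spread widest. The means were 8.25 ± 0.14, 6.93 ± 0.38, 6.67 ± 0.07 and 6.30 ± 0.27 (SD, n = 3 each). Ventral astrocytes overlapped with dorsal non-astrocytes, while the lowest dorsal non-astrocyte array lay 0.07 above the highest ventral one.

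**Figure D1:**
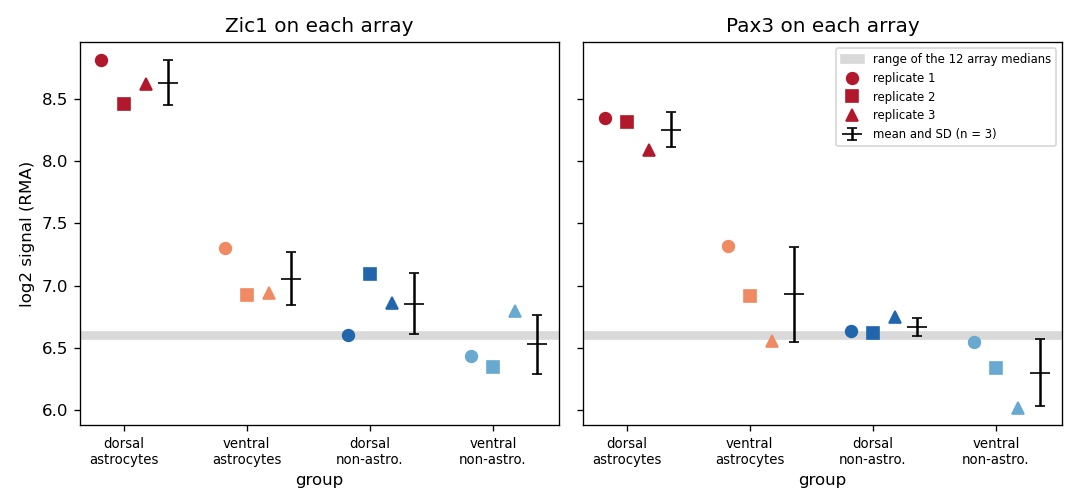
Log2 signal of Zic1 (left) and Pax3 (right) on each of the 12 arrays by group, with the replicate number as the marker shape, the mean and SD of each group (n = 3) in black, and the range of the array medians (6.57 to 6.62) as a grey band. In both panels the 3 dorsal astrocyte arrays, between 8.46 and 8.81 for Zic1 and between 8.09 and 8.35 for Pax3, lie above all others, and non-astrocytes lie around the grey band.

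Dorsal astrocytes were set against ventral astrocytes to ask whether Zic1 and Pax3 differ by region at postnatal day 7. No earlier stage was measured, so whether a difference is kept from the embryo cannot be read. Both genes were higher in dorsal astrocytes. Zic1 was 2.98-fold higher in dorsal astrocytes (log2 difference 1.58, SE 0.16, 95% interval 1.23 to 1.92, adjusted p = 0.0012 in limma over all probe sets). Pax3 was 2.50-fold higher (1.32, SE 0.17, 95% interval 0.94 to 1.70, adjusted p = 0.0067 in limma). Of all probe sets tested, 0.133% were called higher in dorsal astrocytes, and dorsal arrays were all above ventral arrays in 5.29%. By p-value Zic1 was number 6 and Pax3 number 21 of the 28467. In the authors' deposited table of this comparison, Zic1 has a fold change of 2.98 with an adjusted p of 0.0019 and Pax3 one of 2.50 with an adjusted p of 0.017. The genes were picked for description with these results known, so their presence among the called probe sets is no separate support.

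Between arrays of the same replicate number, the dorsal minus ventral difference of Zic1 in astrocytes was 1.51, 1.54 and 1.68 for replicates 1, 2 and 3. The same difference was 1.03, 1.40 and 1.54 for Pax3. The Pax3 differences spread more, and its ventral arrays spread more than its dorsal ones, with replicate 1 higher than replicate 3 by 0.77. No single array ended the call of either gene. Without the 4 arrays of replicate 2, however, both lost it, with adjusted p = 0.052 in limma for Zic1 and 0.25 for Pax3 at differences of 1.60 and 1.28. Pax3 also missed the threshold narrowly when only the 6 arrays of astrocytes entered the model (adjusted p = 0.0502 in limma, with the difference of 1.32 kept by construction).

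**Figure D2:**
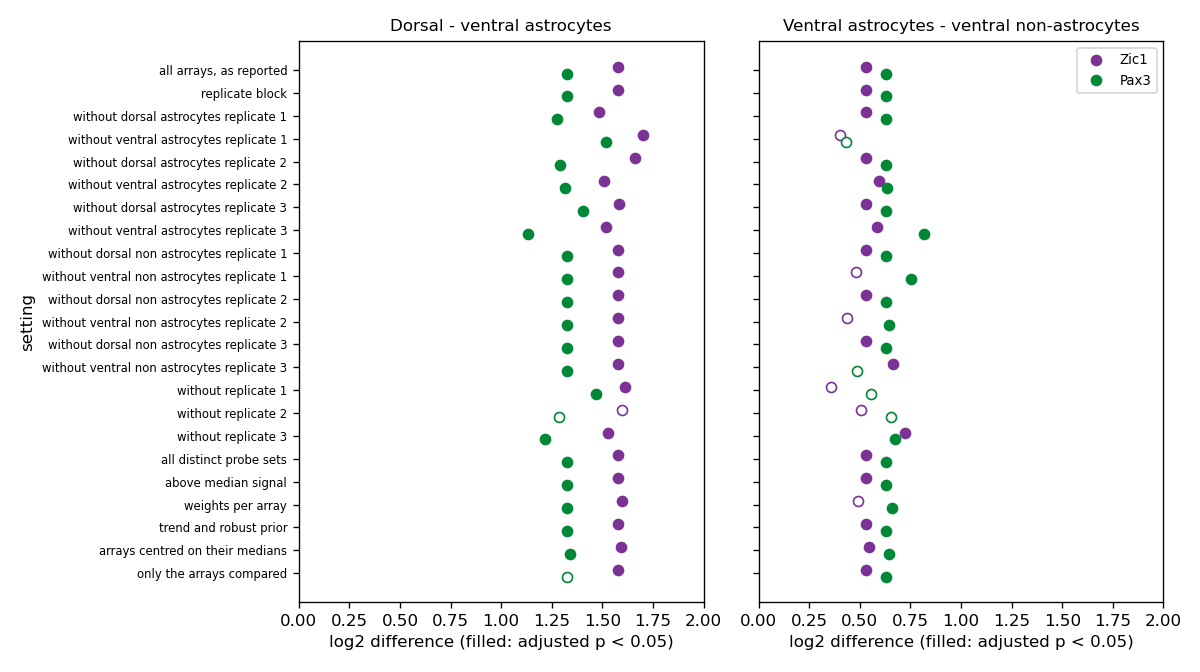
Log2 difference of Zic1 and Pax3 (x axis) under each processing setting (y axis), for dorsal minus ventral astrocytes (left) and for ventral astrocytes minus ventral non-astrocytes (right), with filled points for an adjusted p under 0.05 in limma and unfilled points otherwise. On the left the values stay between 1.49 and 1.70 for Zic1 and between 1.13 and 1.52 for Pax3, and on the right several points are unfilled.

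In non-astrocytes the region made a smaller difference, which did not pass for either gene. Zic1 differed by 0.33 between dorsal and ventral non-astrocytes (SE 0.16, 95% interval -0.02 to 0.67, adjusted p = 0.99 in limma), a 1.25-fold higher mean in dorsal non-astrocytes. Pax3 differed by 0.37 (SE 0.17, 95% interval -0.01 to 0.74, adjusted p = 0.98 in limma), or 1.29-fold. The unadjusted p was 0.062 and 0.057 in limma. The groups overlapped for Zic1 and not for Pax3. Between arrays of the same replicate number the difference was 0.17, 0.75 and 0.06 for Zic1 and 0.09, 0.28 and 0.73 for Pax3, so 1 pair stood above the others for each gene. Zic1 fell to 0.21 without the array of dorsal non-astrocytes 2, and Pax3 to 0.22 without that of ventral non-astrocytes 3. Dorsal non-astrocytes lay wholly above ventral ones in 5.73% of all probe sets, and 0.0176% were called higher. In bulk samples such as these, fewer cells of a type and less RNA per cell cannot be told apart, and the GFP-negative sort mixes neurons, oligodendrocyte lineage cells, microglia and vascular cells. With the replicate number as a block, 0 probe sets were called in this comparison, against 14 without it, and the adjusted p in limma was 0.89 for Zic1 and 0.67 for Pax3. At an unadjusted p under 0.05, 1494 probe sets (5.25%) passed without the block, and calls in either direction were 0.0492% of all.

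Markers of other cells were also read between dorsal and ventral non-astrocytes. Over all probe sets 5.25% had an unadjusted p under 0.05 in this comparison and 0.0492% were called. Of 13 measured microglia genes 0 were called between dorsal and ventral non-astrocytes in limma, 6 had an unadjusted p under 0.05, and the median was 0.43, against 0.00 over all probe sets. The mean log2 signal of the 13 was 8.76 to 8.996 in dorsal non-astrocytes and 8.18 to 8.80 in ventral non-astrocytes. Of 13 measured genes of myelinating oligodendrocytes 4 had an unadjusted p under 0.05, with a median of -0.29, and of 22 astrocyte genes 7 had one, with a median of -0.13, while 0 of either list were called. Such a p was found for 3 of 10 oligodendrocyte precursor genes and 1 of 10 endothelial and mural genes. It was found for 0 of 18 proliferation genes, 0 of 7 pan-neuronal genes and 0 of 7 meningeal and fibroblast genes. Of 3 measured genes of dorsal horn neurons 1 had such a p and 0 were called, with a median of 0.37. Their mean log2 signal was 7.10 to 7.44 in dorsal non-astrocytes and 6.64 to 6.84 in ventral non-astrocytes. For motor and ventral neurons 0 of 2 had such a p, with a median of 0.07. Of 13 ependymal genes 2 were measured, with medians of -0.73 in non-astrocytes and -0.86 in astrocytes. The axonemal dynein gene Dnah12 was called lower dorsally in both sorts, and the other gene was called in neither. Dnah12 stood at -1.49 in non-astrocytes (adjusted p = 0.037 in limma) and -1.49 in astrocytes (adjusted p = 0.010 in limma). Between dorsal and ventral astrocytes 0.207% of all probe sets were called lower. The part of these cells in the values of Zic1 and Pax3 was not tested.

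The test of whether the regional difference was larger in astrocytes than in non-astrocytes did not pass over all probe sets. For Zic1 the regional difference was 1.25 larger in astrocytes (SE 0.23, 95% interval 0.76 to 1.74, unadjusted p = 0.00011, adjusted p = 0.11 in limma). For Pax3 it was 0.96 larger (SE 0.25, 95% interval 0.42 to 1.49, unadjusted p = 0.0020, adjusted p = 0.35 in limma). Of all probe sets, 0.0632% were called in this test. The adjusted p of Zic1 ranged from 0.076 to 0.59 over the alternatives in limma and that of Pax3 from 0.13 to 0.92, and no alternative reached the threshold.

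The comparisons of astrocytes with non-astrocytes asked how far both genes belong to the sorted population on each side of the cord. In the dorsal part both were well above the other cells. Zic1 was 3.43-fold higher in dorsal astrocytes than in dorsal non-astrocytes (log2 difference 1.78, SE 0.16, adjusted p = 3.1e-06 in limma). Pax3 was 3.00-fold higher (1.59, SE 0.17, adjusted p = 1.9e-05 in limma). All dorsal astrocyte arrays were above all dorsal non-astrocyte arrays for both, as in 17.9% of probe sets. This comparison called 12.0% of all probe sets higher in dorsal astrocytes, with 372 called probe sets of larger rise than Zic1 and 477 of larger rise than Pax3. It shares the dorsal astrocyte arrays with the regional comparison, so the 2 results are not independent. The genes also owe their names here to the authors' tables, which list only probe sets past an adjusted p of about 0.15, so a change between the sorts was a condition for most named genes.

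In the ventral part the differences were smaller and less certain. Zic1 was 1.44-fold higher in ventral astrocytes than in ventral non-astrocytes (0.53, SE 0.16, 95% interval 0.18 to 0.87, adjusted p = 0.026 in limma), with a gap of 0.12 between the lowest astrocyte and the highest non-astrocyte array. Pax3 was 1.55-fold higher (0.63, SE 0.17, 95% interval 0.25 to 1.01, adjusted p = 0.017 in limma), with a gap of 0.004. All ventral astrocyte arrays were above all ventral non-astrocyte arrays for both, which held for 18.6% of all probe sets, and 12.2% were called higher. These calls rested on single arrays. Zic1 lost its call without the array of ventral astrocytes 1 (the number is that of the replicate, adjusted p = 0.11 in limma, difference 0.40), ventral non-astrocytes 1 (0.089 as adjusted p, difference 0.48) or ventral non-astrocytes 2 (0.11 as adjusted p, difference 0.44). Pax3 lost it without ventral astrocytes 1 (adjusted p = 0.068 in limma, difference 0.43) or ventral non-astrocytes 3 (0.081 as adjusted p, difference 0.49). Leaving out all arrays of replicate 1 or of replicate 2 also ended both calls. Whether ventral astrocytes express either gene above background cannot be read from these values.

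**Figure D3:**
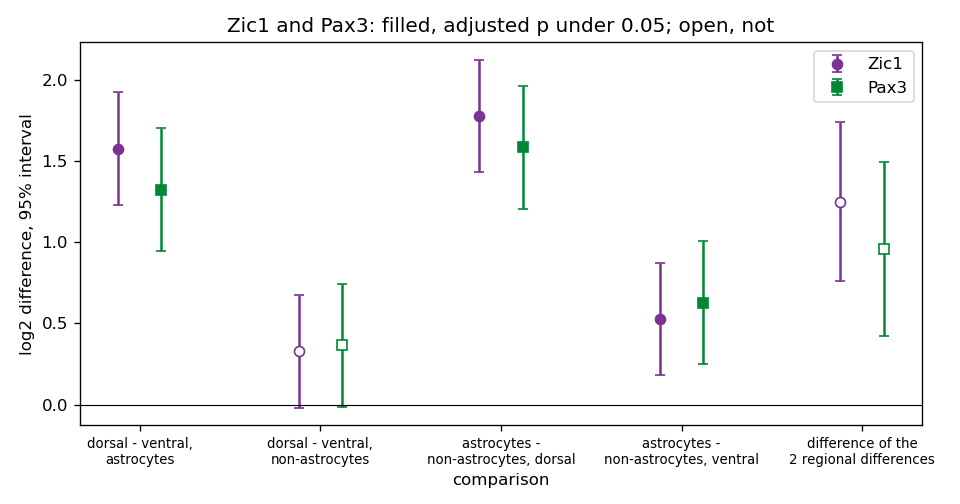
Log2 difference (y axis) of Zic1 and Pax3 in the 4 group comparisons and, at the right, the difference between the regional differences of astrocytes and non-astrocytes, with 95% intervals from the limma fit and filled markers where the adjusted p was under 0.05. The differences that involve dorsal astrocytes and another group lie between 1.32 and 1.78, while the intervals of dorsal minus ventral non-astrocytes include 0.

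Zic1 and Pax3 were then set beside other genes of neural tube patterning. The list of dorsal patterning genes had 27 members, of which 8 were measured under a name, among them Zic1, Pax3, Msx1, Gdf10, Bmp4, Bmp7 and Gli3. Between dorsal and ventral astrocytes, Zic1 and Pax3 were called higher, 0 were called lower and 6 did not pass, and the median of the 8 was -0.09 against -0.02 over all probe sets. Gdf10, a ligand of the transforming growth factor superfamily, had a difference of -0.48 (SE 0.14, adjusted p = 0.24 in limma), with its dorsal arrays all below the ventral ones. Bmp4, a bone morphogenetic protein gene of the roof plate, stood at -0.35 (SE 0.17), and Gli3, a mediator of hedgehog signalling that acts mainly as a repressor in the dorsal tube, at -0.26 (SE 0.14). Msx1, a homeobox gene induced by bone morphogenetic proteins, stood at -0.14 (SE 0.10), and Bmp7, a further bone morphogenetic protein gene, at -0.04 (SE 0.16). In non-astrocytes 0 of the 8 were called in limma and 0 had an unadjusted p under 0.05 (5.25% of all probe sets had one), with a median of -0.02.

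Several of these genes differed between the sorts in either part of the cord. In the dorsal part 5 of the 8 were called higher in astrocytes and 1 lower, and in the ventral part 6 higher and 2 lower, while 12.0% and 12.2% of all probe sets were called higher and 13.8% lower in each part. The medians of the list were 0.49 and 0.57, against -0.24 and -0.26 over all named genes. A change between the sorts was a condition for most names. The shares over all probe sets are therefore not a like measure, and no enrichment is read from these counts. Gli3 was 2.08 higher in dorsal astrocytes (SE 0.14) and 2.35 higher in ventral astrocytes (SE 0.14) than in the non-astrocytes of the same part. Its mean log2 signal was 8.07 ± 0.17 in dorsal astrocytes and 8.32 ± 0.18 in ventral astrocytes (SD, n = 3 each), against 5.99 ± 0.06 in dorsal non-astrocytes and 5.97 ± 0.25 in ventral non-astrocytes. Bmp4 was lower in astrocytes, by -2.02 dorsally (SE 0.17) and -1.91 ventrally (SE 0.17). The dorsal and ventral arrays of Gli3 overlapped within each sort.

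The list of ventral and intermediate patterning genes held 23 members, with 8 measured under a name. Between dorsal and ventral astrocytes 0 of the 8 were called in limma and 0 had an unadjusted p under 0.05, and their median was 0.11. Over all probe sets 0.341% were called and 10.4% had such a p. Pax6, a paired box gene of intermediate and ventral progenitors, had the largest of these differences at 0.27 (SE 0.14, adjusted p = 0.55 in limma). Its mean log2 signal was 8.26 ± 0.35 in dorsal astrocytes and 7.99 ± 0.02 in ventral astrocytes (SD, n = 3 each), against 6.14 ± 0.02 and 6.11 ± 0.14 in dorsal and ventral non-astrocytes. Dbx2, a homeobox gene of intermediate progenitors, stood at 0.07 (SE 0.17) and Nkx2-2, a homeobox gene of ventral progenitors and oligodendrocyte precursors, at -0.02 (SE 0.10). Pax6 was called higher in astrocytes in both parts, by 2.12 (SE 0.14) dorsally and 1.88 (SE 0.14) ventrally, and Nkx2-2 lower, by -0.88 (SE 0.10) and -0.94 (SE 0.10).

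A list of 14 other Pax genes and of homeobox and co-factor genes had 6 measured under a name. Between dorsal and ventral astrocytes 0 of these 6 were called in limma and 1 had an unadjusted p under 0.05. Over all probe sets 0.341% were called and 10.4% had such a p. Meis1, a homeobox gene whose products act with other homeodomain proteins, had the lowest p, at 0.40 (SE 0.12, adjusted p = 0.24 in limma). Its dorsal astrocyte arrays were all above its ventral ones, as in 5.29% of all probe sets. In non-astrocytes Meis1 stood at -0.23 (SE 0.12). Names were known only for genes past the authors' threshold, so nothing can be said here of members of these lists without a name.

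**Figure D4:**
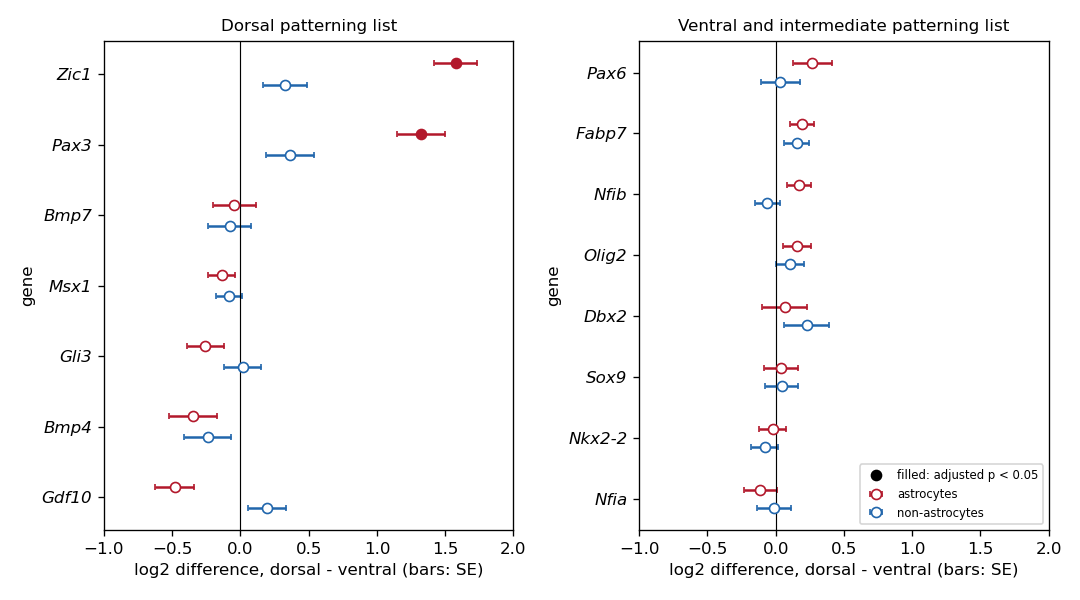
Log2 difference of dorsal minus ventral (x axis, bars are the SE of the limma fit) for the genes of the dorsal patterning list that the text names (left) and the 8 measured genes of the ventral and intermediate list (right), in astrocytes (red) and non-astrocytes (blue), with filled markers where the adjusted p was under 0.05. Zic1 at 1.58 and Pax3 at 1.32 in astrocytes are the filled markers. The open markers lie between -0.48 and 0.37, and the highest of them is that of Pax3 in non-astrocytes.

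The genes whose values over the 12 arrays were most like those of each member were sought among 4356 other named genes by Pearson r. The 12 points share arrays and fall into 4 groups, so r mostly describes the order and spacing of the groups and is given as a description. Between Zic1 and Pax3 themselves r was 0.94 and Spearman's rho 0.83, and 2 genes were more like Zic1 than Pax3 was and 3 more like Pax3 than Zic1 was. For Zic1 the closest 8 were Unc13c (r = 0.96), Cyp4f15 (0.96), Sez6l (0.94), Ice2 (0.94), Slc30a10 (0.94), Tyw5 (0.93), Pde8a (0.93) and Ano6 (0.92). For Pax3 they were Sez6l (r = 0.97), Cyp4f15 (0.95), Por (0.95), Unc13c (0.93), Trhr (0.93), Fat4 (0.92), Grip1 (0.92) and Ano6 (0.92). The 2 sets of 8 shared 4 genes, Ano6, Cyp4f15, Sez6l and Unc13c. The choice of measure mattered, since 0 of the 8 for Zic1 and 1 of the 8 for Pax3 were also among the closest 8 by Spearman's rho, and 4 and 3 were by r over the 4 group means.

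Unc13c, of a family that primes synaptic vesicles for release, had a mean log2 signal of 8.16 ± 0.23 in dorsal astrocytes and 6.57 ± 0.12 in ventral astrocytes (SD, n = 3 each), against 6.60 ± 0.14 in dorsal non-astrocytes and 6.21 ± 0.06 in ventral non-astrocytes. Sez6l, which encodes a membrane protein related to the product of a seizure-related gene, had 9.66 ± 0.20 and 8.51 ± 0.27 in dorsal and ventral astrocytes, against 8.297 ± 0.23 and 8.17 ± 0.18 in dorsal and ventral non-astrocytes (SD, n = 3 each). Both were high in dorsal astrocytes, with the other 3 groups closer together. Ano6, which encodes a membrane scramblase, covered a narrower range, with 8.04 ± 0.14 and 7.47 ± 0.05 in dorsal and ventral astrocytes, against 7.36 ± 0.19 and 7.22 ± 0.05 in dorsal and ventral non-astrocytes (SD, n = 3 each). At the other end, Hspa2 had the lowest r with Zic1 (-0.94) and Pkp4, which encodes a plakophilin of cell junctions, the lowest with Pax3 (-0.94). Pkp4 was lower in dorsal than in ventral astrocytes by -0.65 (adjusted p = 0.026 in limma).

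**Figure D5:**
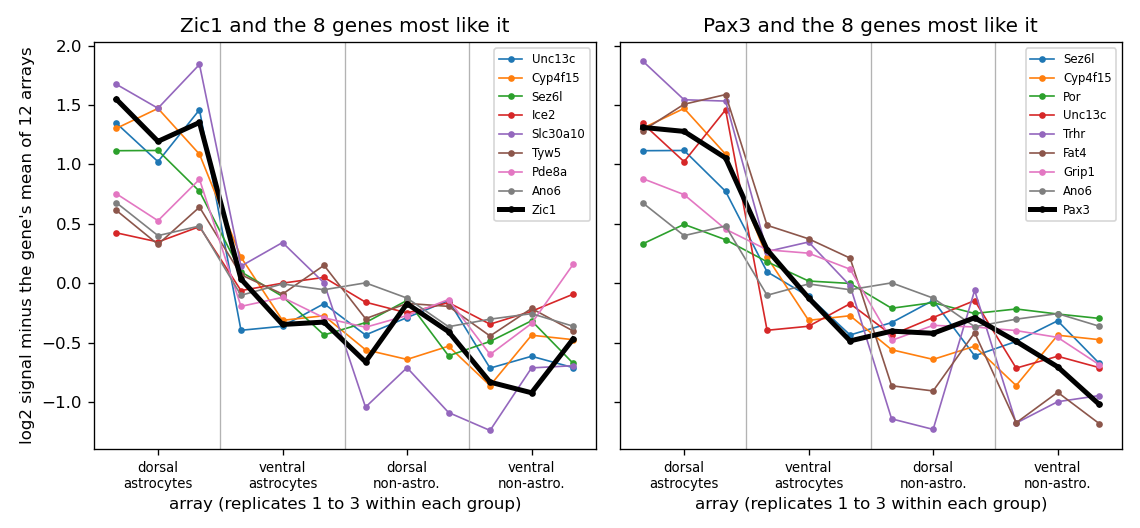
Log2 signal minus the mean of the 12 arrays (y axis) over the arrays of the 4 groups (x axis, replicates 1 to 3 within each group), for Zic1 (left) and Pax3 (right) in black and the 8 named genes most like each in colour. All lines are highest in dorsal astrocytes, and the lines of Ano6 and Por span a narrower range than those of Slc30a10 and Trhr.

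The promoter stretch of Unc13c, the gene most like Zic1, is shown as the counterpart of the Zic1 stretch given above. It lies at chr9:73969038-73969287 on the minus strand of GRCm38.p6, from RefSeq, with capitals for the CCAAT box, the GC box and the ZIC core on either strand.
Unc13c: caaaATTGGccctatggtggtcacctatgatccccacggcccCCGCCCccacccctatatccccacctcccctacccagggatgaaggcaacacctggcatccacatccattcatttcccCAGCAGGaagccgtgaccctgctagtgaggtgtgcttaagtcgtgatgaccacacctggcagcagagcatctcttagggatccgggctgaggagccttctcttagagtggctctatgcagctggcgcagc
Of the 12 different genes most like Zic1 or Pax3, 11 had an entry in the promoter table. The ZIC core was found before 3 of these 11, the paired domain core before 1, ATTA before 2, CCAAT before 4 and GGGCGG before 8, counting a gene with several annotated starts once where any held it. Over all 32851 stretches the shares were 8.44%, 1.78%, 54.9%, 33.8% and 32.7% in that order. These shares count stretches and not genes, so they are not a like measure, and no enrichment is read from the counts.

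Zic1 is also known from meningeal cells and Pax3 from Schwann cell precursors, so markers of such cells were read on the same arrays. Of 28 meningeal and fibroblast genes 7 were measured under a name, and the mean log2 signal of these 7 was 7.60 to 7.97 in dorsal astrocytes and 7.91 to 8.14 in ventral astrocytes, against 6.69 to 7.01 in dorsal non-astrocytes and 6.798 to 6.94 in ventral non-astrocytes. Between dorsal and ventral astrocytes 0 of the 7 were called higher and 2 lower (0.207% of all probe sets were lower), Bgn at -1.38 (SE 0.19) and Fmod at -1.39 (SE 0.15), both of which encode matrix proteoglycans. Islr stood at 0.55 (SE 0.20, adjusted p = 0.36 in limma), the remaining 4 lay between -0.15 and 0.31, and the median of the 7 was 0.02. The part of such cells in the results for Zic1 and Pax3 was not tested. Of 15 Schwann and ganglion genes 8 were measured. Between dorsal and ventral astrocytes 0 of these were called in limma, with 1 at an unadjusted p under 0.05, against 10.4% of all probe sets. Their mean signal was 8.92 to 9.09 in dorsal astrocytes and 8.87 to 9.20 in ventral astrocytes, and some of them, such as Mbp, are also made by oligodendrocytes.

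Among neuron markers, 7 of 18 pan-neuronal genes were measured and 0 were called between dorsal and ventral astrocytes in limma, with a median of -0.29. An unadjusted p under 0.05 was found for 3 of the 7, against 10.4% of all probe sets, and these were the neurofilament genes Nefm at -0.85 (SE 0.21) and Nefl at -0.76 (SE 0.22) and the growth cone gene Gap43 at -0.65 (SE 0.19). Nefl and Nefm were higher in ventral astrocytes than in ventral non-astrocytes (means 9.30 against 7.82 and 8.46 against 7.20). Gap43 was lower there (9.35 against 10.14). The mean signal of the 7 was 7.304 to 7.57 in dorsal astrocytes and 7.37 to 7.96 in ventral astrocytes. Of 25 genes of dorsal horn neurons only Rorb, Reln and Tac1 were measured. Rorb and Reln were higher in astrocytes than in non-astrocytes, and which cells carried their signal was not tested. The mean log2 signal of Reln was 9.08 and 10.14 in dorsal and ventral astrocytes, against 6.92 and 6.55 in dorsal and ventral non-astrocytes. For Rorb it was 8.89 and 8.84 against 5.99 and 5.98. Reln, a secreted glycoprotein gene, was lower in dorsal astrocytes by -1.05 (SE 0.18, adjusted p = 0.029 in limma), and Tac1, a neuropeptide gene, stood at 1.14 (SE 0.40, adjusted p = 0.33 in limma). Tac1 was lower in dorsal astrocytes than in dorsal non-astrocytes by -2.17 (SE 0.40). It had all dorsal astrocyte arrays above all ventral ones, as in 5.29% of all probe sets. Its part in the result for Zic1 and Pax3 was not tested. Among 13 measured genes of myelinating oligodendrocytes 0 were called between dorsal and ventral astrocytes in limma and 4 had an unadjusted p under 0.05, with a median of -0.23 and a mean signal of 8.12 to 8.66 in dorsal and 8.67 to 8.76 in ventral astrocytes. Of 22 measured astrocyte markers 0 were called between dorsal and ventral astrocytes in limma and 2 had an unadjusted p under 0.05, and their mean signal was 10.79 to 11.02 in dorsal and 10.82 to 10.98 in ventral astrocytes.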

How the data were processed

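RNA from 12 samples in 4 groups of region and sort was amplified, labelled with biotin and hybridised to arrays, per the labels' protocols. The submitters' processing notes name oligo, limma and RMA, without versions. The series table deposited by the authors holds 1 value per probe set and array on a log2 scale after RMA. The authors' 2 deposited tables of comparisons add gene names for the listed probe sets only, each with a linear fold ratio, a score (the t statistic) and p-values before and after adjustment.

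Of 35556 probe sets, 476 repeated another's values and were collapsed. A leading block of 6613 with consecutive identifiers and 0 names was left out as control-type, on the numbering alone, which leaves 28467. Names came from a match of the 12 values to 6 decimals with the authors' tables, which named 5116 probe sets of 4575 genes, with symbols updated through RefSeq of GRCm38.p6. For a gene with several probe sets the brightest was used.

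Each comparison was a contrast in limma 3.58.1 (R 4.3.3, lmFit and eBayes, 8 residual and 4.60 prior degrees of freedom), with 1 mean per group over all 12 arrays, two-sided, with Benjamini-Hochberg adjustment over all 28467 probe sets and a threshold of 0.05. The fit was tested on simulated data with known changes between dorsal and ventral astrocytes. It called 46% of changes of 0.5 in log2, 86% of changes of 1 and 98% of changes of 1.5, with 12 false calls. The simulated arrays were independent of the replicate number. The labels do not say that replicates come from separate litters, so p-values measure the spread between these arrays, and 3 arrays per group limit the precision. The members, lists, named genes and motifs were chosen with earlier results of these data known. Named genes were the members, up to 8 genes of each patterning list by lowest p, up to 3 of each marker list, the 8 genes most and 3 least like each member, and 4 astrocyte genes.

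Same-numbered arrays were checked for pairing by correlating their deviations from group means over probe sets. For dorsal and ventral non-astrocytes the 3 correlations were 0.17, 0.15 and 0.21, each over 0.1, so the blocked fit is given beside that comparison. For the other pairs of groups at least 1 of 3 was under 0.1 (0.041, 0.070 and 0.14 for dorsal and ventral astrocytes). Arrays of different numbers gave -0.10 to 0.034 for dorsal and ventral astrocytes, and -0.14 to -0.042 for dorsal and ventral non-astrocytes. Same-numbered arrays were also more alike in the other pairs of groups, except dorsal astrocytes with dorsal non-astrocytes, where the ranges overlapped. What same-numbered arrays share was not tested, and the blocked fit of Zic1 and Pax3 is described below. Promoter stretches were read from the RefSeq table. Some list members enter the counts and are not reported here by name. Alternatives were the block, each array and each replicate number left out, all distinct probe sets, probe sets above the median signal, weights per array, a trended robust prior, centred arrays and only the arrays compared. Figures were made with Python 3.11.15 and matplotlib 3.10.9.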

Additional observations from a re-analysis of the deposited data

How the results depend on the processing

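Both members kept their direction in all 5 comparisons under every alternative run. For dorsal against ventral astrocytes, Zic1 was called in 21 of 22 alternatives and Pax3 in 20 of 22. With single arrays or whole replicates left out, the difference ranged from 1.49 to 1.70 for Zic1 and from 1.13 to 1.52 for Pax3, and Pax3 at 1.32 lost its call with only the arrays compared, where fewer samples estimate the spread. For dorsal against ventral non-astrocytes neither was called in any, with leave-one-out ranges of 0.12 to 0.46 for Zic1 and 0.18 to 0.51 for Pax3. In the dorsal part both were called against non-astrocytes in 22 of 22. In the ventral part Zic1 was called in 16 of 22 and Pax3 in 18 of 22, with leave-one-out ranges of 0.36 to 0.72 and 0.43 to 0.82, and Zic1 at 0.49 lost its call with weights per array (the cause was not tested). The interaction was called in 0 of 21 for either, over leave-one-out ranges of 1.07 to 1.48 and 0.77 to 1.15.

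The number of probe sets called was less stable. For dorsal against ventral astrocytes it was 97, with 46 over all distinct probe sets, 35 with weights per array, 27 with only the arrays compared and 8 to 101 with arrays or replicates left out. Single arrays that moved it by over 1.5 times were dorsal astrocytes 1 (46 without it), ventral astrocytes 1 (62) and ventral astrocytes 2 (48). For non-astrocytes it was 14, with 0 under the replicate block, 0 over all distinct probe sets, 43 with weights per array, 1 with only the arrays compared and 0 to 31 with arrays or replicates left out. For the interaction it was 18, with 3 over all distinct probe sets and 1 to 14 with arrays or replicates left out. Most single arrays, of either sort, moved these 2 small counts by over 1.5 times. For astrocytes against non-astrocytes, leaving arrays or replicates out gave 4684 to 7590 dorsally, against 7345, and 4964 to 7511 ventrally, against 7414. The cause of these shifts was not tested. A setting could change several things together. Over all distinct probe sets the SE moved as well as the number adjusted for (Pax3, dorsal against ventral astrocytes, 0.175 to 0.185). The replicate block left every call of Zic1 and Pax3 on its side of the threshold in the 5 comparisons (for dorsal against ventral astrocytes 1.58 and 1.32, adjusted p = 0.0035 and 0.0033 in limma), and gave 108 called probe sets there. The array signals carry no background level, so values near the array medians set no lower bound.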
